A study of Drosophila melanogaster with 12 samples.

Results

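The comparison described here is that of fly heads expressing mouse TET2 with the R43G substitution (mTET2-R43G) against heads of driver controls. It takes in 6 of the 12 libraries of the series, 3 per group, and all genes whose counts summed to at least 10 over the 12 libraries, which held for 12433 of the 17730 genes in the counts table. The mTET2-R43G flies had the genotype mTet2-R43G;Tet-Gal4 and the controls the genotype W1118 Control;Tet-Gal4, and both were 1-day-old adults. Both therefore carried the Tet-Gal4 driver, in which the yeast activator Gal4 is made under the promoter of the fly gene Tet, and the mTET2-R43G flies also carried the mouse cDNA, Flag-tagged at its N-terminus, behind Gal4 binding sites. The transgene is made only in cells where Tet is active, but each library holds RNA of pooled whole heads of both sexes. The remaining libraries, 3 of mTET2-R1261C and 3 of the unmutated mTET2-wt, carried the same driver, and their transgenes were placed at the same landing site on 2R. They entered the model and are given only beside genes of this comparison.

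Several limits come with these groups as models. The controls carried the driver but not the chromosome with the mouse transgene. The effects of the mouse protein and of that chromosome therefore cannot be told apart against control alone. The study lists the mTET2-R43G stock over the balancer chromosomes CyO and TM6 Tb, and whether the flies sampled carried a balancer is not given in the sources used here. Reads of the mouse sequence are not in the fly annotation, and the level of the transgene was not analysed here. In bulk heads, fewer cells of a type and less RNA per cell cannot be told apart, which holds for each result below.

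TET enzymes are dioxygenases that depend on iron and 2-oxoglutarate and oxidize methylated cytosine, in DNA in mammals. The fly has a single Tet gene, expressed strongly in the nervous system, and its genome holds almost no cytosine methylation, so that the fly enzyme has been studied for its action on modified bases in RNA as well as in DNA. Mouse TET2 put into fly cells therefore meets a different set of substrates and partners. The R43G substitution lies in the N-terminal part of the protein, outside the catalytic domain that the R1261C substitution changes. The comparison asks which fly genes differ in level in the head when this form of the protein is made in the cells that express Tet.

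The counted read pairs were 16549935, 18050130 and 16065891 in the mTET2-R43G libraries 1 to 3, against 16932889, 18468191 and 17831332 in the control libraries. Levels are given in CPM, counts scaled to a common library size of 1e6 after edgeR's TMM normalization, in the order of replicates 1, 2 and 3. CPM do not correct for gene length, so that levels are compared between groups and not between genes. Ribosomal RNA genes held 2.94%, 4.46% and 7.31% of the counts in mTET2-R43G and 4.48%, 3.10% and 5.14% in control. The third mTET2-R43G library stood apart: it held the largest ribosomal share of the 12 libraries and 12860 genes with at least 1 count, against 12274 and 12464 in the other mTET2-R43G libraries and 12309 to 12453 in control. Marker genes matched the labelled tissue. Neuronal markers summed to between 3577 and 3971 CPM in mTET2-R43G and between 3034 and 3687 CPM in control, and photoreceptor markers to between 20919 and 23830 CPM in mTET2-R43G and between 17155 and 21690 CPM in control. Of 6 glial markers, alrm had 0 counts in all libraries, and it lies within Fur1 on the same strand, where read pairs shared by overlapping genes were not counted. None of the tested markers of neurons, photoreceptors, glia, fat body, haemocytes, midgut, testis, ovary, muscle and female tissue was called, against 1.34% of all genes. Midgut markers varied within both groups and summed to 53.4, 78.8 and 72.1 CPM in mTET2-R43G and 22.8, 103 and 13.8 CPM in control.

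A gene was called where the quasi-likelihood test of edgeR gave a p-value no higher than 0.05 after adjustment over all 12433 genes (Benjamini-Hochberg) and the log2 fold change was 1 or more in either direction. The adjusted p-values below are from this test. Called genes numbered 167, which is 1.34% of those tested, with 91 higher in mTET2-R43G (0.732%) and 76 lower (0.611%). The median log2 fold change of the called genes was 2.20 among those higher and −1.59 among those lower. At an unadjusted p-value under 0.05 there were 1409 genes higher (11.3%) and 1449 lower (11.7%). The calls were mostly of genes with few reads. Of the genes higher in mTET2-R43G, 42 averaged less than 1 CPM in control, and of the genes lower, 21 averaged less than 1 CPM in mTET2-R43G. Only 15 called genes exceeded 100 CPM in either group, and the share called was 0.324% among genes with a mean of 100 CPM and above, against 3.10% among those with 1 to 10 CPM. For 164 of the 167 genes no mTET2-R43G library overlapped a control library, which held for 26.6% of all genes tested. The exceptions, named because they are few, were CG9733, Bbd and CG4757.

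**Figure D1:**
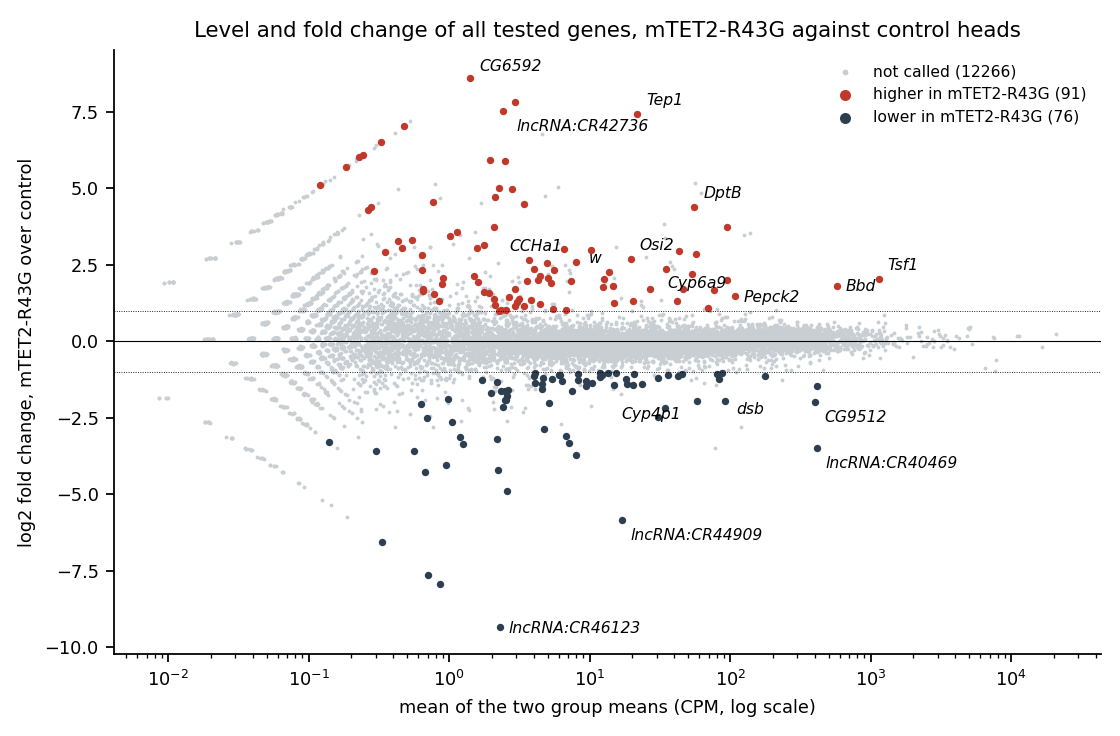
Log2 fold change of each tested gene, mTET2-R43G over control, against the mean of the 2 group means in CPM on a log scale. Red points are the 91 genes called higher, dark points the 76 called lower and grey points the other genes, the dotted lines mark log2 fold changes of 1 and −1, and called genes thin out above 100 CPM. For genes at 0 in a group the plotted value depends on the prior count of the fit.

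The number of called genes changed when single libraries were left out. It was 86 without mTET2-R43G replicate 2 (48 higher and 38 lower), 95 without control replicate 2 (42 and 53) and 81 without control replicate 3 (39 and 42). It was 153 (74 higher and 79 lower) when the library that stood apart, the third of mTET2-R43G, was left out. Across 14 alternative fits, 60 of the 167 calls were made every time, and none of these 167 genes changed sign in any of them.

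CCHa1, Osi2 and a noncoding RNA near the landing site shared the smallest adjusted p-value among the genes that rose. CCHa1 (FBgn0038199, 3R:14092504-14096835), which encodes the neuropeptide CCHamide-1, had 12.6, 15.1 and 13.5 CPM in mTET2-R43G heads, against 2.13, 2.27 and 2.48 CPM in control heads (log2 fold change 2.58, standard error 0.14, adjusted p = 4.80e-06). Osi2 (FBgn0037410, 3R:6209373-6213493), a member of the Osiris family of insect proteins known from cuticle-forming tissue, had 34.3, 30.9 and 36.0 CPM in mTET2-R43G heads, against 4.97, 6.23 and 4.50 CPM in control heads (log2 fold change 2.68, standard error 0.14, adjusted p = 4.80e-06). In both genes every mTET2-R43G library lay far above every control library. Of 31 listed neuropeptide precursors tested, CCHa1 was the only one called (against 1.34% of all genes), and their median log2 fold change was 0.01. CNMa, a neuropeptide gene outside this list, was called lower and is described at the end. Within the list, corazonin (Crz) followed with 8.65, 10.9 and 9.85 CPM in mTET2-R43G heads, against 6.62, 6.08 and 6.11 CPM in control heads (log2 fold change 0.64, adjusted p = 0.0256), under 2-fold. Among 19 tracheal, epidermal and Osiris genes, Osi2 alone was called, against 1.34% of all genes. Osi12 stood at 0.181, 0.167 and 0.130 CPM in mTET2-R43G, against 0.591, 0.258 and 1.10 CPM in control (log2 fold change −1.96, adjusted p = 0.0996).

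**Figure D2:**
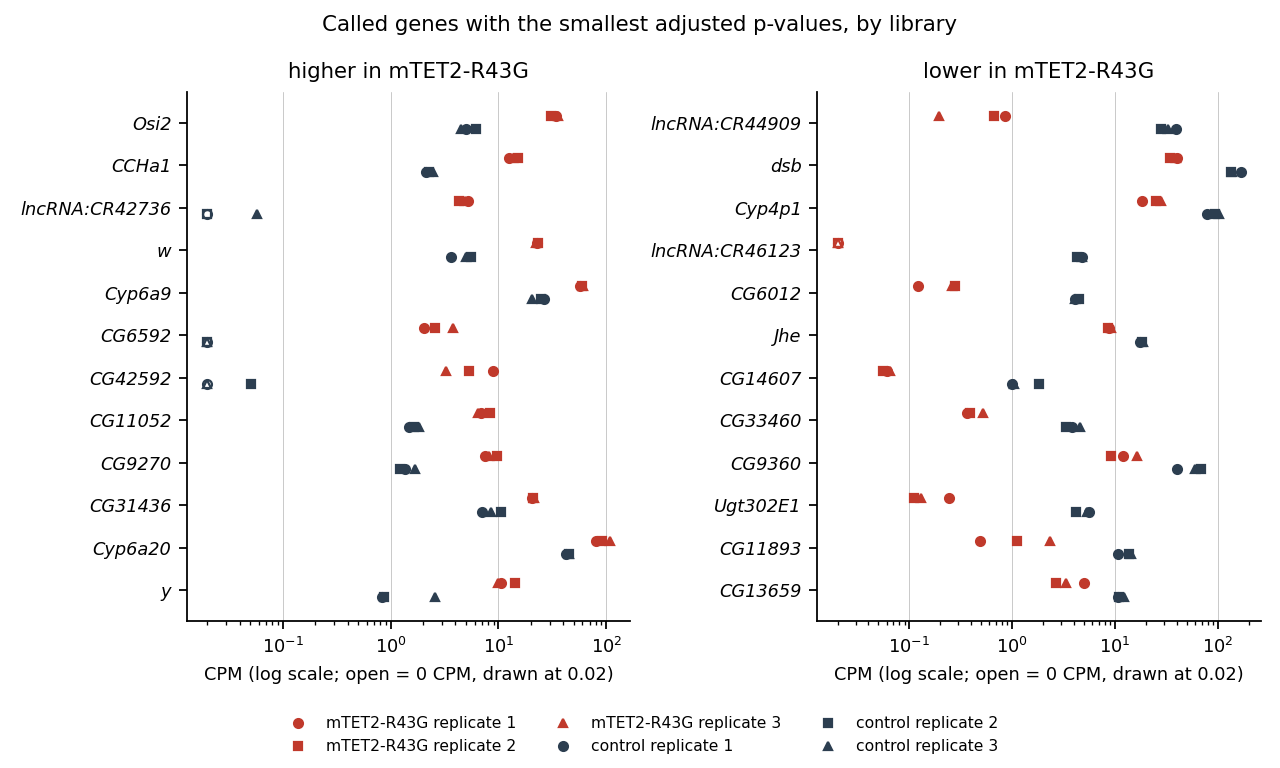
CPM on a log scale in each library for the 12 higher and the 12 lower called genes that had the smallest adjusted p-values and no overlap between groups. Red symbols are mTET2-R43G and dark symbols control, the shape gives the replicate, and open symbols are libraries with 0 CPM, which are drawn at 0.02. In all 24 genes the 3 mTET2-R43G libraries lie on 1 side of the 3 control libraries.

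The genes white (w) and yellow (y) rose. Transgenes and landing sites of this kind are marked with copies of these genes, which restore eye colour and body colour in mutant hosts. The gene w, an ABC transporter that brings pigment precursors into the eye, had 22.7, 23.0 and 22.4 CPM in mTET2-R43G heads, against 3.61, 5.56 and 4.96 CPM in control heads (log2 fold change 2.26, adjusted p = 5.10e-06). The gene y, needed for dark cuticle pigment, had 10.6, 14.2 and 9.98 CPM in mTET2-R43G heads, against 0.828, 0.876 and 2.59 CPM in control heads (log2 fold change 3.02, adjusted p = 7.52e-04). Reads from marker copies and from the resident genes are counted together. Of the other genes of eye pigment, cd had 22.9, 21.5 and 22.7 CPM in mTET2-R43G, against 14.2, 15.1 and 14.5 CPM in control (log2 fold change 0.62, adjusted p = 0.00184). The gene pr, of the same drosopterin route as se, had 49.5, 47.6 and 54.6 CPM in mTET2-R43G, against 76.4, 70.3 and 94.3 CPM in control (log2 fold change −0.67, adjusted p = 0.0422). Both differed by less than 2-fold and were not called. The gene se, whose enzyme makes a precursor of the red drosopterin pigments, was called lower with 45.7, 51.8 and 53.6 CPM in mTET2-R43G heads, against 117, 113 and 121 CPM in control heads (log2 fold change −1.22, standard error 0.19, adjusted p = 0.00536).

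Genes near the landing site of the transgene included 3 that rose. The site itself was taken from the methods of the study. Within 100 kb of it, 3 of 40 tested genes were called (7.5%), all higher, and within 250 kb 4 of 69 (5.8%), against 33 of 2285 genes (1.44%) at more than 1000 kb on the same arm. These shares are a description and were not tested. The long noncoding RNA lncRNA:CR42736 (FBgn0261700, 2R:18377487-18378196), the nearest called gene at 20.2 kb, had 5.20, 4.34 and 4.86 CPM in mTET2-R43G heads, against 0, 0 and 0.0576 CPM in control heads. The ratio of the summed counts was 257-fold, 95% counting interval 45.7 to 10190.0 (adjusted p = 4.80e-06). Its level thus was near 0 in control only, with 4.26, 5.42 and 6.01 CPM in mTET2-R1261C and 4.58, 5.84 and 4.61 CPM in mTET2-wt, which carry transgenes at the same site. The Bomanin gene BomS1 lies at 26.6 kb and CG18540 at 57.2 kb. CG18540 had 0.968, 0.612 and 0.778 CPM in mTET2-R43G heads, against 0.0591, 0.0515 and 0.115 CPM in control heads (log2 fold change 3.27, standard error 0.60, adjusted p = 0.0140), a call that was lost without control replicate 2 (adjusted p = 0.0638, log2 fold change 3.06). The closest gene, sbb, a transcriptional regulator whose end lies within 0.0250 kb of the site, had 328, 379 and 380.0 CPM in mTET2-R43G heads, against 345, 285 and 286 CPM in control heads (log2 fold change 0.25, adjusted p = 0.249). The other called gene within 250 kb, Pepck2, is described with metabolism below.

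Enzymes of detoxification and of hormone breakdown differed in both directions. Cytochrome P450 enzymes oxidize hormones and foreign compounds, and of 83 tested genes 3 were called higher and 3 lower (3.61% each, against 0.732% and 0.611% of all genes), with a median log2 fold change of −0.13. Cyp6a9 (FBgn0013771, 2R:14879356-14881372) had 56.7, 59.4 and 61.3 CPM in mTET2-R43G heads, against 26.2, 24.8 and 20.6 CPM in control heads (log2 fold change 1.31, standard error 0.09, adjusted p = 1.36e-05). The next gene along 2R, Cyp6a20, which is known for its effect on aggression in male flies, had 79.9, 92.0 and 109 CPM in mTET2-R43G, against 42.5, 45.1 and 44.9 CPM in control (log2 fold change 1.08, standard error 0.12, adjusted p = 6.88e-04), and its fold change was just under 2-fold without mTET2-R43G replicate 3 (adjusted p = 0.00177, log2 fold change 0.96). Cyp4p1 (FBgn0015037, 2R:9240041-9242139), in contrast, fell to 18.5, 25.0 and 27.9 CPM in mTET2-R43G heads, against 79.3, 94.0 and 103 CPM in control heads (log2 fold change −1.96, standard error 0.14, adjusted p = 2.21e-05). The groups were far apart, and the gene stood at 26.0, 23.0 and 23.8 CPM in mTET2-R1261C and 23.9, 25.4 and 24.0 CPM in mTET2-wt. Cyp6w1 had 151, 87.6 and 94.6 CPM in mTET2-R43G, against 233, 236 and 259 CPM in control (log2 fold change −1.13, adjusted p = 0.00535), just under 2-fold without mTET2-R43G replicate 2 (adjusted p = 0.0225, log2 fold change −0.98). Cyp4d1 (log2 fold change 1.17) and Cyp6a14 (log2 fold change −1.36) were called at adjusted p-values of 0.0416 and 0.0458. The call of Cyp4d1 was lost without mTET2-R43G replicate 1 or 3 or control replicate 1, 2 or 3 (adjusted p = 0.0564 to 0.131, log2 fold change 0.99 to 1.41), and that of Cyp6a14 without mTET2-R43G replicate 1 or 2 or control replicate 1, 2 or 3 (adjusted p = 0.0319 to 0.121, log2 fold change −0.98 to −1.45). Both calls were also lost with replicate number as a block and in the fit of the 6 libraries alone.

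Juvenile hormone esterase (Jhe, FBgn0010052), which degrades juvenile hormone in the haemolymph, fell to 8.65, 8.57 and 9.20 CPM in mTET2-R43G heads, against 17.4, 18.3 and 18.9 CPM in control heads (log2 fold change −1.05, standard error 0.10, adjusted p = 2.74e-04). The libraries of each group lay close together, and the groups did not overlap. It was the only called gene of 17 in the list of ecdysone and juvenile hormone response, against 1.34% of all genes. In that list 9 genes were higher and 2 lower at an unadjusted p-value under 0.05 (against 11.3% and 11.7% of all genes), with a median log2 fold change of 0.22 against −0.01 for all genes tested. The ecdysone-induced nuclear receptor gene Eip75B was among them with 403, 445 and 452 CPM in mTET2-R43G heads, against 359.6, 350.1 and 337 CPM in control heads (log2 fold change 0.31, adjusted p = 0.0373). Among 67 glutathione and UDP transferases only Ugt302E1 (FBgn0040257, 3R:11154626-11156513) was called, a number near the 1.34% called over all genes. This enzyme of the family that conjugates small molecules with sugars had 0.242, 0.111 and 0.130 CPM in mTET2-R43G heads, against 5.56, 4.17 and 5.30 CPM in control heads (log2 fold change −4.90, adjusted p = 0.00119), so that few reads were left with the transgene. Of 39 odorant binding proteins, carriers of odours and other small molecules, only Obp56h was called, against 1.34% of all genes. It was lower, with 13.6, 9.96 and 9.01 CPM in mTET2-R43G, against 19.8, 31.8 and 24.9 CPM in control (log2 fold change −1.23, adjusted p = 0.00886). Of the 39, 13 with this gene included were lower and 1 higher at an unadjusted p-value under 0.05 (against 11.7% and 11.3% of all genes). The second mTET2-R43G library was the lowest of its group for 23 of them and the third control library the highest of the 6 for 15, and without mTET2-R43G replicate 2 the genes lower numbered 7. Without any other single library they numbered 10 to 14.

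Called genes also lay side by side. Where the gap between called genes was at most 20 kb, 34 of them fell into 15 runs, and in 4 runs the directions were mixed. The number of runs was not set against the spacing of genes. The longest run was on 3R, between 25289889 and 25320101, in a row of genes of the ecdysteroid kinase-like family, whose members in insects are thought to phosphorylate ecdysteroids and other small molecules. Of the 13 tested genes of this span, 4 were called lower and 1 higher (over all genes 0.611% and 0.732%). The span was set by its called genes and was the longest such run. Its share called therefore cannot be compared with that of all genes. CG11893 had 0.484, 1.11 and 2.33 CPM in mTET2-R43G heads, against 10.7, 13.8 and 14.4 CPM in control heads (log2 fold change −3.31, standard error 0.40, adjusted p = 0.00134). CG13659 had 5.02, 2.67 and 3.37 CPM in mTET2-R43G, against 10.6, 10.9 and 12.1 CPM in control (log2 fold change −1.60, adjusted p = 0.00270). CG31436, which lies beyond 1 gene from it on the same strand, had 20.3, 21.0 and 21.2 CPM in mTET2-R43G, against 7.04, 10.6 and 8.53 CPM in control (log2 fold change 1.25, adjusted p = 5.19e-04). Both were separated between the groups, and in opposite directions. CG31288 and CG10560, named as members of this run, had log2 fold changes of −1.11 and −1.14 (adjusted p = 0.0180 and 0.00848). Next to CG11893, CG31098 had 24.7, 27.4 and 26.4 CPM in mTET2-R43G, against 27.6, 27.7 and 25.7 CPM in control (log2 fold change −0.05, adjusted p = 0.774), a difference smaller than the spread between libraries. The gene CG10550 had 79.4, 85.4 and 108 CPM in mTET2-R43G, against 159, 158 and 196 CPM in control, with a log2 fold change of −0.91 (adjusted p = 0.00246), under 2-fold. The genes of this row thus differed among themselves in direction and size.

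Among the genes that fell, dsb (FBgn0035290) and lncRNA:CR44909 (FBgn0266214) had the smallest adjusted p-values. The gene dsb (debris buster), which encodes a scavenger receptor of the CD36 family, had 40.4, 34.0 and 39.2 CPM in mTET2-R43G heads, against 167, 134 and 137 CPM in control heads (log2 fold change −1.95, adjusted p = 8.34e-06). The noncoding RNA lncRNA:CR44909 had 0.847, 0.668 and 0.194 CPM in mTET2-R43G heads, against 38.9, 28.0 and 32.5 CPM in control heads (log2 fold change −5.82, adjusted p = 7.38e-06). The noncoding gene shares its strand and part of its span with 3 annotated genes, where shared read pairs were not counted. Of the genes known only by number, CG6012 had 0.121, 0.278 and 0.259 CPM in mTET2-R43G, against 4.08, 4.43 and 4.09 CPM in control (log2 fold change −4.21, adjusted p = 1.94e-04). CG33460 had 0.363, 0.390 and 0.518 CPM in mTET2-R43G, against 3.79, 3.35 and 4.61 CPM in control (log2 fold change −3.19, adjusted p = 7.03e-04). CG9360 had 12.1, 9.13 and 16.5 CPM in mTET2-R43G, against 40.0, 68.1 and 60.4 CPM in control (log2 fold change −2.16, adjusted p = 7.63e-04). In none of the 3 did the groups overlap, and the first 2 were below 1 CPM in each mTET2-R43G library. On the other side, CG6592, a serine-type endopeptidase gene, had 2.06, 2.56 and 3.82 CPM in mTET2-R43G heads, against 0, 0 and 0 CPM in control heads, which is at least 49.8-fold higher against a floor of 3 counts over the control libraries (adjusted p = 5.97e-05). CG11052 had 6.83, 8.40 and 6.48 CPM in mTET2-R43G, against 1.48, 1.65 and 1.84 CPM in control (log2 fold change 2.12, adjusted p = 1.94e-04). CG9270 had 7.56, 9.74 and 8.23 CPM in mTET2-R43G, against 1.36, 1.24 and 1.67 CPM in control (log2 fold change 2.58, adjusted p = 4.69e-04). In total 7 called genes had 0 counts in all control libraries and 4 in all mTET2-R43G libraries.

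Of the genes that fell, lncRNA:CR40469, CG9512 and Est-6 had the highest mean CPM in control. Est-6, which encodes the secreted carboxylesterase Esterase 6, had 246, 159.8 and 256 CPM in mTET2-R43G heads, against 554, 441 and 816 CPM in control heads (log2 fold change −1.45, standard error 0.25, adjusted p = 0.0104). CG9512, from the family of glucose-methanol-choline oxidoreductases, had 136, 130.1 and 222 CPM in mTET2-R43G, against 575, 394 and 962 CPM in control (log2 fold change −1.99, adjusted p = 0.00916), and its call was lost without mTET2-R43G replicate 2 (adjusted p = 0.0527, log2 fold change −1.85). The noncoding RNA lncRNA:CR40469, on X, had 11.6, 33.6 and 157 CPM in mTET2-R43G heads, against 496, 917 and 851 CPM in control heads (log2 fold change −3.49, adjusted p = 0.0271), and its mTET2-R43G libraries differed widely. Its call was lost without mTET2-R43G replicate 2 or control replicate 2 or 3 (adjusted p = 0.0684 to 0.108, log2 fold change −3.16 to −3.39). The robust fit and the fit of the 6 libraries alone lost the call too. This RNA stood at 347, 512 and 173 CPM in mTET2-R1261C and 12.4, 10.5 and 12.0 CPM in mTET2-wt.

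Antimicrobial peptides are secreted by the fat body and by epithelia after the IMD or Toll pathway senses microbes, and Bomanins are short peptides induced by Toll. Most genes of both groups had higher means in mTET2-R43G, with a log2 fold change above 0 for 15 of 17 and 15 of 16 genes, but few passed the test, and the mTET2-R43G libraries differed widely among themselves. Of 17 antimicrobial peptide genes tested, 1 was called higher and 1 lower (against 0.732% and 0.611% of all genes), and the median log2 fold change was 3.08. At an unadjusted p-value under 0.05 there were 13 genes higher and 2 lower (against 11.3% and 11.7% of all genes). DptB, a Diptericin of the IMD response, was called higher with 80.1, 214 and 23.1 CPM in mTET2-R43G heads, against 6.15, 1.13 and 8.07 CPM in control heads (log2 fold change 4.38, standard error 0.99, adjusted p = 0.0331). Its 3 mTET2-R43G libraries lay above all control libraries, with the second far above the others. Drsl4, a relative of Drosomycin, was called lower with 1.21, 0.946 and 1.75 CPM in mTET2-R43G, against 3.79, 2.78 and 5.13 CPM in control (log2 fold change −1.58, standard error 0.36, adjusted p = 0.0345). Its neighbour in the family, Drsl5, had 63.3, 51.2 and 64.1 CPM in mTET2-R43G, against 93.3, 105 and 101 CPM in control (log2 fold change −0.75, adjusted p = 0.0223), under 2-fold. These were the only antimicrobial peptide genes with a negative log2 fold change. DptA missed the threshold with 31.3, 276 and 21.5 CPM in mTET2-R43G heads, against 2.60, 1.65 and 4.96 CPM in control heads (log2 fold change 5.17, standard error 1.32, adjusted p = 0.0503). AttC, an Attacin, missed it too, with a mean of 119.9 ± 124 CPM in mTET2-R43G and 4.23 ± 2.43 CPM in control (SD, n = 3 each, log2 fold change 4.84, adjusted p = 0.0519). Drosomycin (Drs), the classical readout of Toll, had 303, 421 and 38.9 CPM in mTET2-R43G, against 48.6, 3.04 and 13.7 CPM in control (log2 fold change 3.56, adjusted p = 0.0647), and its groups overlapped. AttA and AttB, near-identical neighbours whose reads may be split between them, had log2 fold changes of 2.60 and 3.39 (adjusted p = 0.154 and 0.0967). AttD had 0, 4.62 and 0 CPM in mTET2-R43G, against 0, 0 and 0.115 CPM in control (log2 fold change 5.13, adjusted p = 0.149), so that its mean rested on 1 library. Of these genes that missed the threshold, DptA was called in 7 of 14 alternative fits, AttC in 4, Drs in 3 and AttB in 1. AttA was called in 0 of 14 and AttD in 0 of 12.

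The library that was highest depended on the group of peptides. Among the 17 antimicrobial peptide genes, the second mTET2-R43G library was the highest of the 6 libraries for 14, and the sums over the list were 687, 1687 and 213 CPM in mTET2-R43G, against 185, 129 and 191 CPM in control. Among the 16 Bomanins and other Toll-induced peptides, the first mTET2-R43G library was the highest for 15, and the third was the lowest of its group for 13. Of these 16 genes, 3 were called higher and none lower (against 0.732% and 0.611% of all genes), 11 were higher at an unadjusted p-value under 0.05 (against 11.3%), and the median log2 fold change was 0.85. The Bomanin genes from BomT1 to BomS6, BomS1 among them, lie 24.1 to 33.0 kb from the landing site of the transgene. For them, effects of the chromosome that carries the transgene and of the mouse protein cannot be told apart. BomS1 had 239, 150.0 and 63.6 CPM in mTET2-R43G heads, against 33.8, 25.5 and 52.7 CPM in control heads (log2 fold change 2.02, standard error 0.45, adjusted p = 0.0318). BomBc3 had 122, 54.9 and 34.3 CPM in mTET2-R43G, against 27.9, 14.4 and 22.9 CPM in control (log2 fold change 1.70, standard error 0.38, adjusted p = 0.0329). The Baramicin gene BaraA1, which encodes antifungal peptides, had 32.9, 15.5 and 9.40 CPM in mTET2-R43G, against 6.56, 3.55 and 6.74 CPM in control (log2 fold change 1.78, standard error 0.42, adjusted p = 0.0381). In these 3 genes the third mTET2-R43G library lay closest to the highest control library. Bbd, which encodes a secreted protein needed for the short Bomanins, had 1582, 758 and 341 CPM in mTET2-R43G, against 356, 176 and 238 CPM in control (log2 fold change 1.80, adjusted p = 0.0440). It was, with Tsf1 and CG4757, among the 3 called higher genes with the highest mean CPM in mTET2-R43G, and its groups overlapped. CG4757, a predicted carboxylesterase gene, had 340.3, 161 and 26.1 CPM in mTET2-R43G, against 27.3, 3.55 and 8.88 CPM in control (log2 fold change 3.74, adjusted p = 0.0453), with overlap too, and its call was lost without mTET2-R43G replicate 1 or 2 or control replicate 2 or 3 (adjusted p = 0.0927 to 0.160, log2 fold change 2.83 to 3.80). The replicate block, the robust fit and the fit of the 6 libraries alone lost that call too.

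The calls of these immune genes were lost in several alternative fits. With all libraries of both groups kept, each was lost with replicate number as a block and in the fit of the 6 libraries alone. All but that of Drsl4 were also lost under the robust fit. Leaving out single libraries removed these calls as well. That of DptB was lost without mTET2-R43G replicate 2 or control replicate 1, 2 or 3 (adjusted p = 0.0692 to 0.111, log2 fold change 3.35 to 4.89), that of Drsl4 without mTET2-R43G replicate 1 or 2 or control replicate 1 or 3 (adjusted p = 0.0554 to 0.130, log2 fold change −1.34 to −1.60), and that of BomS1 without mTET2-R43G replicate 1 or 2 or control replicate 1, 2 or 3 (adjusted p = 0.0564 to 0.115, log2 fold change 1.52 to 2.35). The call of BomBc3 was lost without mTET2-R43G replicate 1 or 2 or control replicate 2 or 3 (adjusted p = 0.0537 to 0.115, log2 fold change 1.04 to 1.85), that of BaraA1 without mTET2-R43G replicate 1 or 2 or control replicate 1, 2 or 3 (adjusted p = 0.0638 to 0.128, log2 fold change 1.16 to 1.94), and that of Bbd without mTET2-R43G replicate 1 or 2 or control replicate 2 or 3 (adjusted p = 0.0923 to 0.146, log2 fold change 1.10 to 1.91). The median of the antimicrobial peptides was 1.54 without mTET2-R43G replicate 2, and that of the Bomanins was 0.41 without mTET2-R43G replicate 1. Among the components of the pathways themselves, none of 15 Toll, 10 IMD, 10 JAK-STAT or 10 JNK pathway genes was called, against 1.34% of all genes. At that share, the absence of calls in lists this short says little about the pathways. The receptor gene Tl had 328, 354 and 348 CPM in mTET2-R43G, against 294, 294 and 282 CPM in control, with a log2 fold change of 0.25 (adjusted p = 0.0328). The adaptor gene Myd88 had 37.0, 36.1 and 40.0 CPM in mTET2-R43G, against 36.7, 37.0 and 42.0 CPM in control (log2 fold change −0.03, adjusted p = 0.838). Stat92E, the transcription factor of JAK-STAT signalling, had 524, 459 and 511 CPM in mTET2-R43G, against 528, 520.0 and 539.6 CPM in control (log2 fold change −0.09, adjusted p = 0.543). PGRP-LB, an amidase that breaks down peptidoglycan and dampens IMD signalling, had 13.6, 22.6 and 12.0 CPM in mTET2-R43G, against 7.87, 8.96 and 8.30 CPM in control (log2 fold change 0.94, adjusted p = 0.0287), just under 2-fold. The Turandot genes, which answer stress and JAK-STAT signalling, included 0 calls among 5, and TotA had 237, 91.2 and 90.0 CPM in mTET2-R43G, against 186, 36.4 and 126 CPM in control (log2 fold change 0.26, adjusted p = 0.819).

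**Figure D3:**
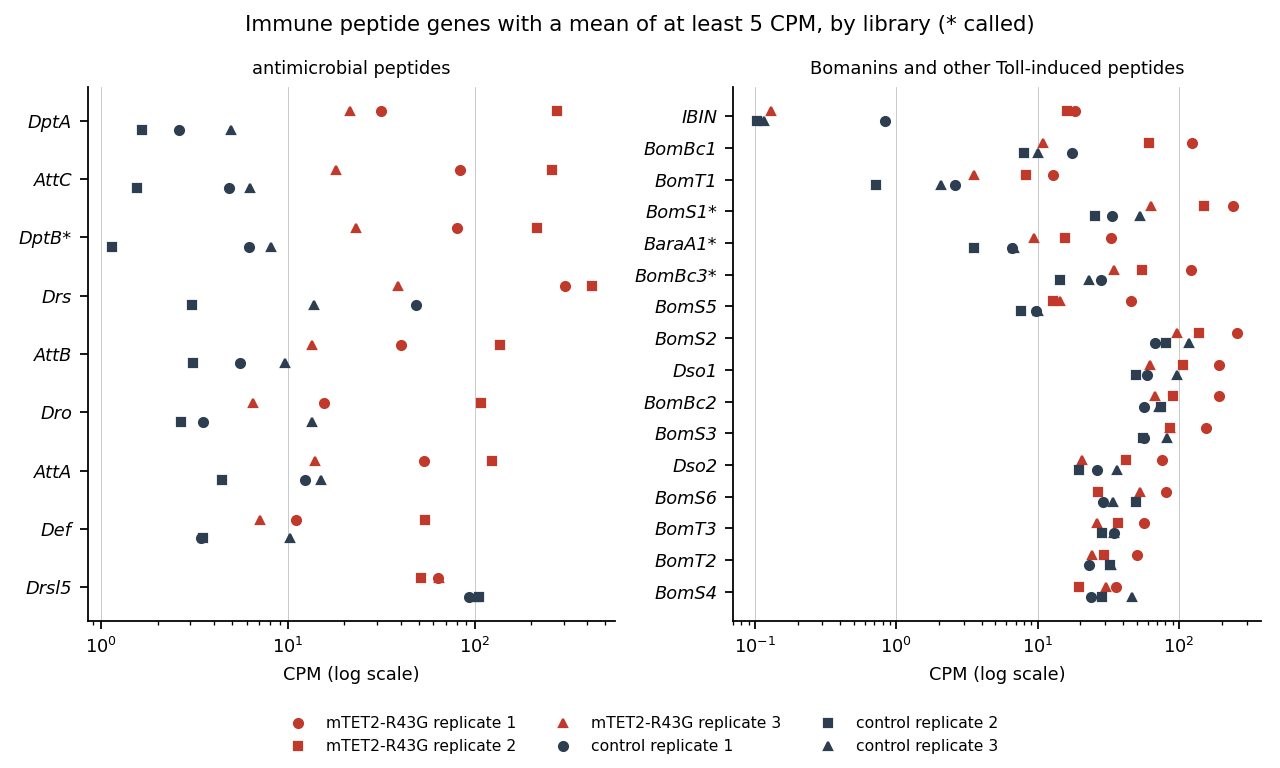
CPM on a log scale in each library for antimicrobial peptide genes (left) and for Bomanins and other Toll-induced peptide genes (right) with a mean of at least 5 CPM over the group means. Red symbols are mTET2-R43G, dark symbols are control, the shape gives the replicate and an asterisk marks called genes. Squares (replicate 2) are the rightmost red symbols for the antimicrobial peptides other than Drsl5, and circles (replicate 1) for most Bomanins.

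Among genes of haemocytes, the blood cells, 1 gene fell. PPO1, the prophenoloxidase of crystal cells that starts melanin formation, had 1.75, 0.835 and 1.68 CPM in mTET2-R43G heads, against 5.56, 18.8 and 12.0 CPM in control heads (log2 fold change −3.10, standard error 0.69, adjusted p = 0.0318), and its call was lost without mTET2-R43G replicate 1, 2 or 3 or control replicate 2 or 3 (adjusted p = 0.0616 to 0.126, log2 fold change −2.63 to −3.28). With all libraries kept, the call was also lost with a replicate block and in the robust fit. PPO1 was the only called gene among 17 haemocyte genes (against 1.34% of all genes), whose median log2 fold change was −0.37. PPO2, a second prophenoloxidase of crystal cells, had 8.83, 11.1 and 11.5 CPM in mTET2-R43G, against 14.7, 24.4 and 17 CPM in control (log2 fold change −0.83, adjusted p = 0.0736). The collagen gene Col4a1, of the basement membrane, had 426, 422 and 487 CPM in mTET2-R43G, against 292, 319 and 315 CPM in control (log2 fold change 0.53, adjusted p = 0.00841). The summed CPM of the 5 haemocyte markers were 695, 673 and 827 in mTET2-R43G and 594, 762 and 724 in control, and their part in these results was not tested.

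Genes of iron handling and of fat body metabolism were among the abundant genes that rose. Tsf1, transferrin 1, the iron carrier of the haemolymph, had 2835, 1652 and 1017 CPM in mTET2-R43G heads, against 580.3, 268 and 488 CPM in control heads (log2 fold change 2.04, standard error 0.34, adjusted p = 0.00908). Each mTET2-R43G library lay above each control library. It missed the threshold when the other 6 libraries were left out of the fit (adjusted p = 0.0543). Mco1 (FBgn0032116, 2L:9416588-9426342), a multicopper oxidase that acts as a ferroxidase, had 124, 127 and 101 CPM in mTET2-R43G heads, against 25.6, 43.1 and 40.3 CPM in control heads (log2 fold change 1.69, standard error 0.22, adjusted p = 0.00230). CG33502, predicted to act in the assembly of iron-sulphur clusters, had 7.68, 3.00 and 0.907 CPM in mTET2-R43G, against 0.177, 0.0515 and 0.634 CPM in control (log2 fold change 3.74, standard error 0.90, adjusted p = 0.0422). Its mTET2-R43G libraries differed widely, and its call was lost without mTET2-R43G replicate 1 or 2 or control replicate 1, 2 or 3 (adjusted p = 0.0606 to 0.131, log2 fold change 2.77 to 5.04). It was also lost with a replicate block, in the robust fit and in the fit of the 6 libraries alone. Tsf1, Mco1 and CG33502 were 3 of 19 genes of iron and copper handling, against 0.732% called higher over all genes, while the median of the list was 0.09. MtnA, a metallothionein, had 113, 87.8 and 120.5 CPM in mTET2-R43G, against 62.5, 64.0 and 71.1 CPM in control (log2 fold change 0.70, adjusted p = 0.0269), under 2-fold.

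Pepck2 (FBgn0034356), a paralog of the gluconeogenic enzyme phosphoenolpyruvate carboxykinase, had 110.5, 196 and 171 CPM in mTET2-R43G heads, against 51.5, 44.0 and 73.8 CPM in control heads (log2 fold change 1.49, standard error 0.21, adjusted p = 0.00326). It lies within 250 kb of the landing site, and had 222, 224 and 211 CPM in mTET2-R1261C and 263, 303 and 307 CPM in mTET2-wt. No other gene of the 18 in insulin signalling and sugar metabolism was called, against 1.34% of all genes. The insulin receptor gene InR had 246, 279.8 and 267 CPM in mTET2-R43G, against 201, 214 and 162 CPM in control (log2 fold change 0.46, adjusted p = 0.0474). CG5966, a lipase gene of the fat body, had 104, 89.5 and 68.9 CPM in mTET2-R43G heads, against 18.3, 11.8 and 26.9 CPM in control heads (log2 fold change 2.20, standard error 0.35, adjusted p = 0.00638). With Tsf1 it made 2 of 17 fat body genes called higher, against 0.732% of all genes. At the same time, the fat body markers Lsp2, Yp1, Yp2, Fbp1 and apolpp summed to 34649, 18483 and 25956 CPM in mTET2-R43G and 28609, 23912 and 54369 CPM in control. The yolk protein gene Yp3 had 8209, 2909 and 4405 CPM in mTET2-R43G, against 8420.5, 5199 and 16658 CPM in control (log2 fold change −0.96, adjusted p = 0.224). The female-biased fat body gene fit had 23.8, 4.67 and 9.72 CPM in mTET2-R43G, against 55.7, 46.4 and 326 CPM in control (log2 fold change −3.49, adjusted p = 0.0567). The third control library was thus the highest for female fat body products, and their part in the fat body results was not tested.

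Tet itself, whose promoter drives the transgene, had 378, 425 and 423 CPM in mTET2-R43G heads, against 315, 295 and 282 CPM in control heads (log2 fold change 0.46, standard error 0.11, adjusted p = 0.0360), a difference of less than 2-fold in which the groups did not overlap. Other genes of RNA methylation, the writers Mettl3 and Mettl14 and the reader Ythdc1, had log2 fold changes of 0.12, 0.01 and 0.17 (adjusted p = 0.782, 0.984 and 0.354). None of the 8 genes of this list was called, against 1.34% of all genes. Of the genes that the study follows by name, the transcription factor genes hkb and ich were called against control. The gene hkb, which encodes the zinc finger factor Huckebein that patterns the ends of the embryo, had 7.5, 5.12 and 3.69 CPM in mTET2-R43G heads, against 0.118, 0.258 and 0.115 CPM in control heads (log2 fold change 4.97, standard error 0.66, adjusted p = 0.00246). It stood at 5.84, 5.54 and 7.22 CPM in mTET2-R1261C and 0.348, 2.81 and 1.61 CPM in mTET2-wt. The gene ich, which encodes the zinc finger factor Ichor of the tracheal system, had 3.69, 0.556 and 2.07 CPM in mTET2-R43G heads, against 0.118, 0.103 and 0.288 CPM in control heads (log2 fold change 3.58, standard error 0.75, adjusted p = 0.0251). It stood at 0.131, 0.120 and 0.366 CPM in mTET2-R1261C and 0.290, 0.365 and 0.104 CPM in mTET2-wt. Its call against control was lost without mTET2-R43G replicate 1 or control replicate 1, 2 or 3 (adjusted p = 0.0592 to 0.0988, log2 fold change 2.90 to 4.17). With all libraries of both groups kept, the call of ich was also lost with a replicate block and in the fit of the 6 libraries alone. The autophagy gene Atg16 had 68.8, 43 and 37.9 CPM in mTET2-R43G, against 30.8, 30.4 and 29.5 CPM in control (log2 fold change 0.72, adjusted p = 0.0556) and was not called against control. The dynein heavy chain gene Dhc16F had 1.51, 1.61 and 1.94 CPM in mTET2-R43G, against 1.54, 1.18 and 1.61 CPM in control (log2 fold change 0.23, adjusted p = 0.939). It stood at 1.62, 95.8 and 68.8 CPM in mTET2-wt. The study reports Dhc16F, ich and Atg16 for mTET2-R43G against mTET2-wt, whereas the tests above are against control. In the present fit, mTET2-R43G against mTET2-wt gave them log2 fold changes of −5.03, 3.02 and 0.81 (adjusted p = 0.117, 0.233 and 0.233). None of them was called in that contrast either.

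Lists of genes that define the working head held no calls. None of 16 synaptic and neuronal genes, 20 genes of phototransduction, 15 glial genes or 14 clock genes was called, against 1.34% of all genes. At that share, the absence of calls in lists this short says little about their members. Small differences were present within them. Rh5, the opsin of a class of blue-sensitive photoreceptors, had 219, 176 and 182 CPM in mTET2-R43G heads, against 284, 301 and 254 CPM in control heads (log2 fold change −0.54, adjusted p = 0.0104). Rh4, an opsin for ultraviolet light, had 777, 703 and 630.1 CPM in mTET2-R43G, against 542, 626 and 444 CPM in control (log2 fold change 0.39, adjusted p = 0.0785). Snap25, a protein of synaptic vesicle fusion, had 1071, 1251 and 1104 CPM in mTET2-R43G, against 981, 879 and 859 CPM in control (log2 fold change 0.33, adjusted p = 0.0471). In glia, the glutamine synthetase gene Gs2 had 809, 777 and 878 CPM in mTET2-R43G, against 1015, 1085 and 1253 CPM in control (log2 fold change −0.44, adjusted p = 0.0224) and 4 of the 15 genes were lower at an unadjusted p-value under 0.05, with none higher (against 11.7% and 11.3% of all genes). The first mTET2-R43G library was the lowest of its group for 12 of the 15 genes, and the third control library the highest of the 6 for 8. The clock gene tim had 389.7, 255 and 211 CPM in mTET2-R43G, against 245, 140.4 and 139.7 CPM in control (log2 fold change 0.71, adjusted p = 0.159), where a clock gene also reflects the hour of sampling, which is not given in the sources used here.

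Lists of genes for protein synthesis, respiration and cuticle held no call (against 1.34% of all genes) but more genes with a lower than with a higher level. Of 86 cytosolic ribosomal protein genes, 36 were lower and none higher at an unadjusted p-value under 0.05 (against 11.7% and 11.3% of all genes), with a median log2 fold change of −0.22. This count changed with the library left out. The second mTET2-R43G library was the lowest of its group for 82 of the 86 genes and the third control library the highest of the 6 for 73, and the sums over the list were 35884, 27118 and 31352 CPM in mTET2-R43G, against 33345, 36582 and 39919 CPM in control. The genes lower numbered 5 without mTET2-R43G replicate 2, 10 without mTET2-R43G replicate 3, 14 without control replicate 2 and 5 without control replicate 3. They numbered 74 without mTET2-R43G replicate 1 and 53 without control replicate 1. The groups did not overlap for 8 of the 86 genes, against 26.6% of all genes. Of the list RpS2 had 457, 303 and 348 CPM in mTET2-R43G, against 458, 504 and 542 CPM in control (log2 fold change −0.44, adjusted p = 0.0699). Of 25 nuclear genes of oxidative phosphorylation, 11 were lower and 1 higher by the same measure, with a median log2 fold change of −0.15. The third control library was the highest of the 6 for 20 of the 25, and without it 5 genes were lower. Without mTET2-R43G replicate 1 or 2 there were 7, without mTET2-R43G replicate 3 11, without control replicate 1 9 and without control replicate 2 15. COX7A, a subunit of cytochrome c oxidase, had 127, 122 and 131 CPM in mTET2-R43G, against 179, 172 and 208 CPM in control (log2 fold change −0.56, adjusted p = 0.00404). Of 62 cuticle proteins, 12 were lower and 5 higher by the same measure. For 38 of the 62 the first mTET2-R43G library was the lowest of its group, and for 27 the third control library was the highest of the 6. Cpr49Ae had 51.7, 55.8 and 74.3 CPM in mTET2-R43G, against 115, 119 and 123 CPM in control (log2 fold change −0.97, adjusted p = 0.00332). Cpr11B, in the other direction, had 48.7, 38.3 and 42.4 CPM in mTET2-R43G, against 20.7, 26.0 and 23.2 CPM in control (log2 fold change 0.89, adjusted p = 0.00445). Over all genes tested, 1409 (higher) and 1449 (lower) of 12433 passed the unadjusted threshold and the median log2 fold change was −0.01. Under RLE size factors that median was 0.01 and those of the 3 lists were −0.20, −0.13 and −0.13. Heat shock proteins (18 genes), antioxidant defence (15), autophagy (18), fat storage (14), odorant receptors (49), midgut enzymes (35), alpha-esterases (10), testis genes (10) and female composition genes (7) held no call either.

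**Figure D4:**
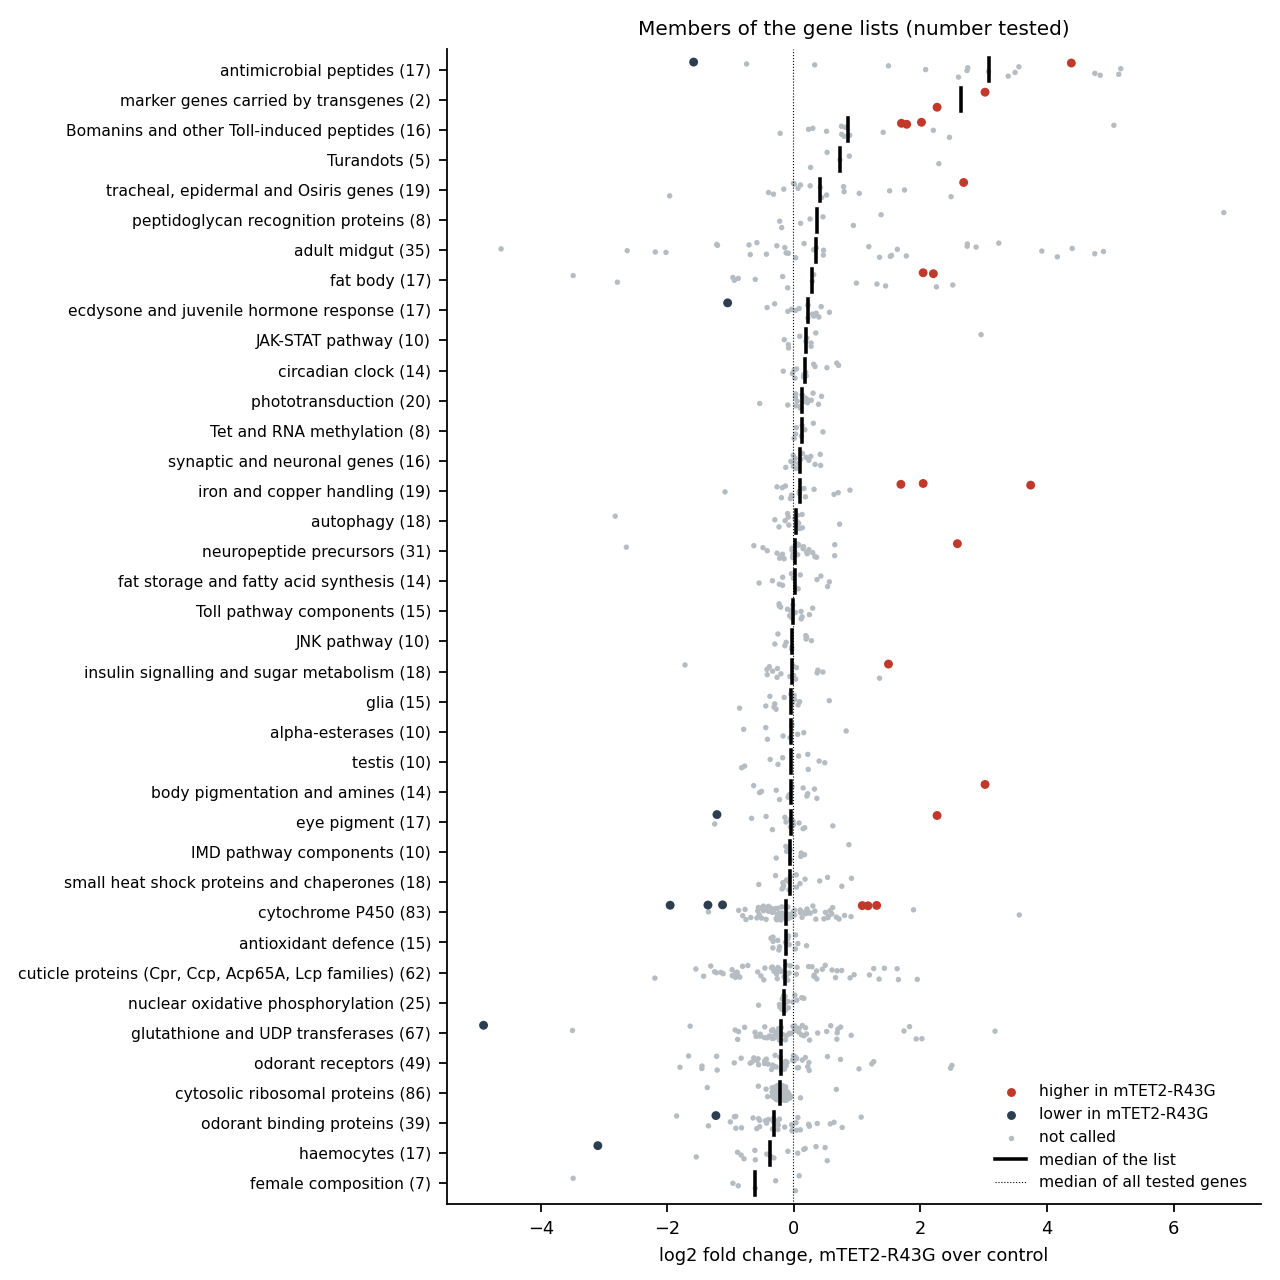
Log2 fold change, mTET2-R43G over control, of every tested member of the 38 gene lists, with the number of tested members after the name. Red points were called higher, dark points lower and grey points not, black bars mark the median of each list and the dotted line that of all 12433 genes. The antimicrobial peptides have the highest median, 3.08, although only 2 of 17 members were called.

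For 8 of the 167 genes the mTET2-R43G heads also differed from those of another mTET2 group by the same test, 5 from mTET2-wt and 5 from mTET2-R1261C, 2 of them from both. Over all genes, 0.0804% were called against mTET2-wt (0.0402% higher and 0.0402% lower in mTET2-R43G) and 0.0724% against mTET2-R1261C (0.0161% higher and 0.0563% lower). Those comparisons share the mTET2-R43G libraries with the one above. CCHa1 stood at 2.03, 2.35 and 2.09 CPM in mTET2-R1261C and 2.15, 2.76 and 2.18 CPM in mTET2-wt, near its level in control. It and the noncoding RNA lncRNA:CR44691 were called against each of the 3 other groups. lncRNA:CR44691 had 7.14, 3.95 and 2.14 CPM in mTET2-R43G heads, against 0, 0.206 and 0.173 CPM in control heads, with 0.131, 0.0602 and 0 CPM in mTET2-R1261C and 0.232, 0.104 and 0.207 CPM in mTET2-wt. For Mco1, CG42592 and lncRNA:CR46123 both mutants lay on the same side of mTET2-wt and control. Mco1 had 105, 148 and 97.8 CPM in mTET2-R1261C and 28.2, 39.4 and 41.7 CPM in mTET2-wt. CG42592 had 8.89, 5.29 and 3.24 CPM in mTET2-R43G heads, against 0, 0.0515 and 0 CPM in control heads, with 14.4, 21.8 and 11.8 CPM in mTET2-R1261C and 0, 0.0521 and 0.0519 CPM in mTET2-wt. The noncoding RNA lncRNA:CR46123 was at 0 CPM in all mTET2-R43G and mTET2-R1261C libraries, against 6.32, 4.22 and 5.65 CPM in mTET2-wt and 4.73, 4.22 and 4.78 CPM in control, which made it at least 76.0-fold lower than control. CG14607 had 0.0605, 0.0556 and 0.0648 CPM in mTET2-R43G, against 1.01, 1.80 and 1.04 CPM in control, with 0.525, 0.602 and 0.523 CPM in mTET2-R1261C and 0.406, 0.261 and 0.311 CPM in mTET2-wt. Drsl4 and CG14655 were lower in mTET2-R43G than in mTET2-R1261C. Drsl4, with 1.21, 0.946 and 1.75 CPM in mTET2-R43G, had 11, 8.97 and 4.65 CPM in mTET2-R1261C. CG14655 had 5.32, 8.18 and 8.17 CPM in mTET2-R43G, against 19.9, 9.69 and 19.2 CPM in control (log2 fold change −1.17, adjusted p = 0.0323), with 19.1, 20.5 and 28.1 CPM in mTET2-R1261C, and its call against control was lost without mTET2-R43G replicate 1, 2 or 3 or control replicate 1 or 3 (adjusted p = 0.0595 to 0.117, log2 fold change −0.99 to −1.27). That call was also lost with a replicate block and in the fit of the 6 libraries alone.

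**Figure D5:**
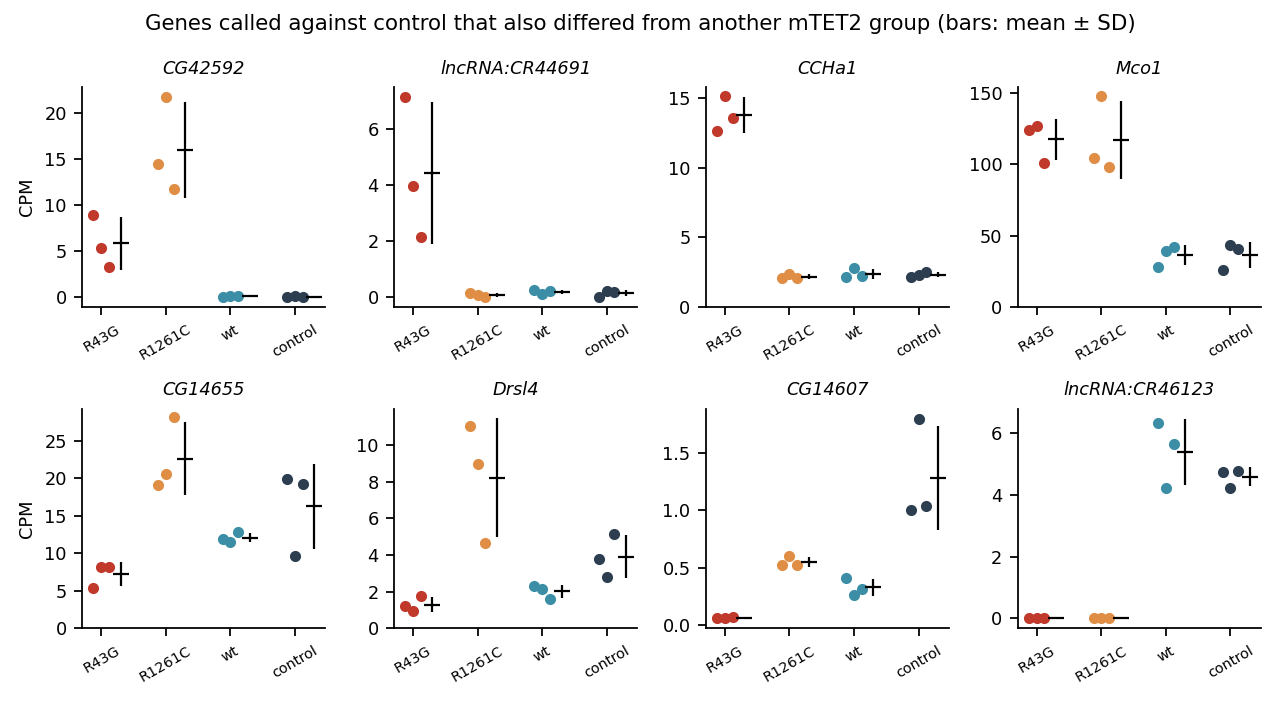
CPM in each library of mTET2-R43G, mTET2-R1261C, mTET2-wt and control for the 8 genes called in mTET2-R43G against control and also against mTET2-wt or mTET2-R1261C. Points are libraries and black bars give the mean ± SD of 3. CCHa1 is high in mTET2-R43G alone, CG42592 and Mco1 are high and lncRNA:CR46123 is at 0 in both mutants.

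By position, the called genes were spread over the arms, with 34 on 2L (1.5%), 40 on 2R (1.57%), 22 on 3L (0.898%), 42 on 3R (1.37%) and 28 on X (1.41%), against 1.34% over all genes. None was on chromosome 4, and 1 of 14 tested genes of Y was called. By class, 140 of 11093 protein-coding genes were called (1.26%), as were 14 of 706 long noncoding RNAs (1.98%) and 9 of 370 antisense RNAs (2.43%). These shares were not tested.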

How the data were processed

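Libraries of total RNA (TruSeq stranded, depleted of ribosomal RNA) were sequenced by the authors in pairs and aligned to the FlyBase dmel_r6.28 genome with hisat2 2.1.0. The deposited table holds raw counts of read pairs per gene, made by the authors with featureCounts over whole gene bodies on the reverse strand, so that intronic reads are included and pairs shared by overlapping genes on a strand are not counted. The study gives version 1.6.0 and the submitters' processing notes version 2.0.1. The table also gives, per the file headers, gene positions and a gene length, another deposited column that was not used for levels. Symbols were matched by identifier for 17632 of the 17730 genes, and classes came from the Ensembl annotation. Groups came from the labels, which call the samples biological replicates. Nothing says whether they were separate crosses.

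Genes whose counts summed to 10 or more were fitted over all 12 libraries with edgeR 4.0.16 in R 4.3.3 (TMM normalization, 1 mean per group, quasi-likelihood test), and p-values were adjusted over all tested genes by the method of Benjamini and Hochberg. The thresholds for calls are given with the results. Totals were between 15894383 and 19434046 counts in the 12 libraries, and the median biological coefficient of variation over genes was 16.9%. A count of 0 was bounded by 3 counts over the group, and the ratios of small counts carry 95% intervals (exact, binomial), which cover counting error only. Alternatives were RLE size factors, other filters, a robust fit, a replicate block, the 6 libraries alone, each library left out, the removal of ribosomal RNA genes, other fold minimums and DESeq2 1.42.0. Scripts were tested on simulated data.

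The genes named were the 12 most significant called genes per direction without overlap between groups, the called genes of the gene lists, the 3 called genes per direction with the highest mean CPM in the group where they were higher, genes that the study names, and list members with small p-values. The comparison, the gene lists and the members were chosen with earlier results of these data known.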

Additional observations from a re-analysis of the deposited data

Results flagged for a closer look

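Among the 167 genes called in mTET2-R43G against control, 8 were also called in the direct contrast of mTET2-R43G with another mTET2 group by edgeR's quasi-likelihood test, which is what singled them out. CCHa1 had a log2 fold change of 2.54 against mTET2-wt (1.11e-05) and 2.67 against mTET2-R1261C (5.87e-06). The values in parentheses here are adjusted p-values over all genes. The noncoding RNA lncRNA:CR44691 had 4.56 against mTET2-wt (0.0290) and 6.05 against mTET2-R1261C (0.0171). Against mTET2-wt, CG42592 had a log2 fold change of 7.08 (8.71e-04), Mco1 of 1.69 (0.0151) and lncRNA:CR46123 of −9.57 (5.75e-04). For CG42592 and lncRNA:CR46123 the size depends on the prior count of the fit, because mTET2-wt or mTET2-R43G had almost no counts. Against mTET2-R1261C, CG14607 had a log2 fold change of −3.05 (0.0498), Drsl4 of −2.66 (0.0177) and CG14655 of −1.65 (0.0498). CG14607 rested on 1 count per mTET2-R43G library. In all 8 genes the contrast shares its mTET2-R43G libraries with the contrast against control.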

How the results depend on the processing

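For mTET2-R43G against control the 167 calls became 538 with no minimum fold change (285 higher and 253 lower), 289 with a minimum of 1.5-fold (142 and 147), 102 with a replicate block (45 and 57), 93 when the fit held only these 6 libraries (42 and 51), and between 81 and 153 when 1 library was left out. They were 175 with RLE size factors, 173 with no filter, 172 with filterByExpr, 148 with a robust fit, 169 without ribosomal RNA genes and 231 with DESeq2. Against mTET2-wt the 10 calls became 18 with no minimum fold change, 16 with 1.5-fold, 5 in the fit of 6 libraries, 29 with DESeq2 and between 3 and 8 with 1 library left out. Against mTET2-R1261C the 9 calls became 5 with the replicate block, 4 in the fit of 6 libraries, 2 with DESeq2 and between 3 and 10 with 1 library left out. The cause of these differences was not tested. In the fits that leave libraries out, a smaller number of samples and the absence of those libraries cannot be told apart. Deviations of same-numbered libraries from their group means had correlations of 0.023, −0.101 and −0.072, and the other pairs −0.196 to 0.229. So few values cannot decide whether the replicate numbers pair the samples. Of 50 called genes named, 31 kept their call in all 14 alternatives and 19 lost it in at least 1. The median of the Turandot genes was −0.23 without mTET2-R43G replicate 1, 1.85 without control replicate 1 and 0.73 with all libraries. The medians of the ribosomal protein, oxidative phosphorylation and odorant binding protein lists without single libraries were computed after seeing the data, and all stayed below 0.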

Other observations

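Some called genes that belong to none of the gene lists are given here, chosen after their values were seen. The Hox gene abd-A, which specifies abdominal segments, had 0.363, 0.612 and 0.972 CPM in mTET2-R43G heads, against 0, 0 and 0 CPM in control heads, at least 11.5-fold higher (adjusted p = 0.0220). The gene qin, which acts in the piRNA pathway of the germ line, had 45.8, 103 and 26.1 CPM in mTET2-R43G heads, against 11.8, 10.8 and 11.4 CPM in control heads (log2 fold change 2.37, adjusted p = 0.0131). It overlaps Tssk on the same strand, where shared pairs were not counted. Its mTET2-R43G libraries differed widely but lay above all control libraries. The photolyase gene phr, which repairs ultraviolet damage in DNA, had 21.3, 24.1 and 22.9 CPM in mTET2-R43G heads, against 7.69, 8.24 and 3.46 CPM in control heads (log2 fold change 1.81, adjusted p = 0.00379). Tep1, a thioester-containing protein of the humoral immune response, had 0.907, 125 and 3.63 CPM in mTET2-R43G heads, against 0.296, 0.103 and 0.346 CPM in control heads (log2 fold change 7.44, adjusted p = 0.0422), a mean that rested on the second mTET2-R43G library, the one that was highest for most antimicrobial peptides.

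Genes that fell included CNMa, a neuropeptide gene outside the neuropeptide list, with 0.786, 1.5 and 1.10 CPM in mTET2-R43G heads, against 5.68, 16.3 and 3.00 CPM in control heads (log2 fold change −2.87, adjusted p = 0.0169). The cell cycle gene Cks30A had 1.57, 0.612 and 0.972 CPM in mTET2-R43G heads, against 2.42, 5.26 and 4.27 CPM in control heads (log2 fold change −1.92, adjusted p = 0.0207), and Cdc6, which loads the replication helicase, had 0.968, 0.612 and 1.10 CPM in mTET2-R43G heads, against 2.60, 6.18 and 2.94 CPM in control heads (log2 fold change −2.13, adjusted p = 0.0173). In these 3 genes no mTET2-R43G library reached the lowest control library. Over all called genes, 142 of the 167 were in no list, and 78 were named by a CG number only.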
